A study of Caenorhabditis elegans with 2 samples.

Results

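The C-type lectin genes of Caenorhabditis elegans were taken as every row of the deposited table whose gene symbol is clec- followed by a number, which gave 265 of 46135 genes. Their levels were compared between 2 RNA-seq libraries of whole L3 larvae, made from total RNA after depletion of ribosomal RNA. The mutant library came from animals with the tm3585 allele of lsm-1, backcrossed 3 times to N2, and the other from N2, the standard wild-type strain. All animals had been grown from synchronised L1 larvae for 26 hours at 25 °C. Each genotype is 1 library, so no difference has a replicate check, and every comparison is one of these libraries. In RNA from whole animals, fewer cells of a type and less RNA per cell cannot be told apart.

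C-type lectins share an extracellular protein fold that in many animals binds sugars with the help of calcium, although a ligand is known for few of the nematode proteins. The family is among the largest in the nematode genome, and many of its members are predicted to be secreted. A subset is made in the intestine and is induced, in patterns that depend on the microbe, when worms feed on pathogenic bacteria. The product of lsm-1 belongs to a ring of Lsm proteins in the cytoplasm that promotes removal of the cap from messenger RNAs.

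The members are spread unevenly over the genome. Chromosome V held 96 of the 265 members (36.2%), IV 59 (22.3%), II 51 (19.2%), I 38 (14.3%), III 18 (6.79%) and X 3 (1.13%). Of all protein-coding genes, 25.1% were on V and 13.6% on X. RefSeq annotation of the WBcel235 assembly matched 264 members, of which 239 were protein-coding genes and 25 were pseudogenes. With at most 1 other protein-coding gene allowed between neighbours, 98 of these 264 stood alone and the others lay in 51 runs, the longest with 15 members.

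Levels are given as FPKM, fragments scaled by the authors for transcript length and library size. A gene was called measured at 1 FPKM or more in either library. By this rule 82 of the 265 members (30.9%) were measured, against 61.3% of all protein-coding genes. Of the 183 unmeasured members, 135 were above 0 in both libraries, 32 in the wild-type library alone and 10 in the mutant library alone, and 6 were listed at 0 in both. Of all genes below 1 FPKM, 5674 were above 0 in both libraries, 1745 in the wild-type library alone and 549 in the mutant library alone. The larger number in the wild-type library alone is thus shared with low genes in general. The summed level of the 183 members was 41.4 FPKM in the mutant library against 73.4 in the wild-type library, a ratio of 0.565. Over all genes below 1 FPKM that ratio was 0.663, so the low members are read beside a lower total of low genes in general.

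The summed level of the family was nearly the same in both libraries. All 265 members came to 642.0 FPKM in the mutant library against 640.8 in the wild-type library, a ratio of 1.002, while the sum over all genes had a ratio of 1.09. Over protein-coding genes alone the sums were 213913 against 175889 FPKM, a ratio of 1.22, so the family total was lower beside these genes. With both libraries set to equal sums over all genes the family ratio was 0.917. No scaling to protein-coding genes alone was made. A few members made up most of the total. The gene clec-63 alone gave 17.9% of it in mutant larvae against 15.2% in wild-type larvae, and the 10 most abundant members gave 58.6% and 50.6%.

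Most of these abundant members stood close together in the libraries. On chromosome II, clec-63 (F35C5.6) reached 114.7 FPKM in the mutant library against 97.1 in the wild-type library, a ratio of 1.18. Here and below a 95% interval of a ratio is the exact binomial (Clopper-Pearson) interval from estimated fragment numbers and covers counting error only. For clec-63 it was 1.08 to 1.29, but its log2 difference of 0.24 equalled the median of all measured genes, and with equal library sums it was 0.11. On chromosome V, clec-50 (W04E12.8) reached 65.3 against 59.8 FPKM. The gene clec-1 stood at 39.9 against 27.6 FPKM, a ratio of 1.44 (1.18 to 1.78). A gene linked to defence against Bacillus thuringiensis, clec-41, was at 35.9 against 28.8 FPKM, a log2 difference of 0.31 that was 0.07 after the median of all genes was subtracted.

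Other abundant members lay on either side of equality. Slightly lower in the mutant library were clec-209 (22.1 against 25.5 FPKM), clec-65 (21.9 against 25.1) and clec-150 (11.2 against 15.1). The levels of clec-180 were 23.7 against 22.6 FPKM. Those of clec-85, known as a target of the p38 kinase PMK-1, were 15.2 against 15.3. Among the 10 most abundant members, clec-230 alone differed by more than 2-fold.

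**Figure D1:**
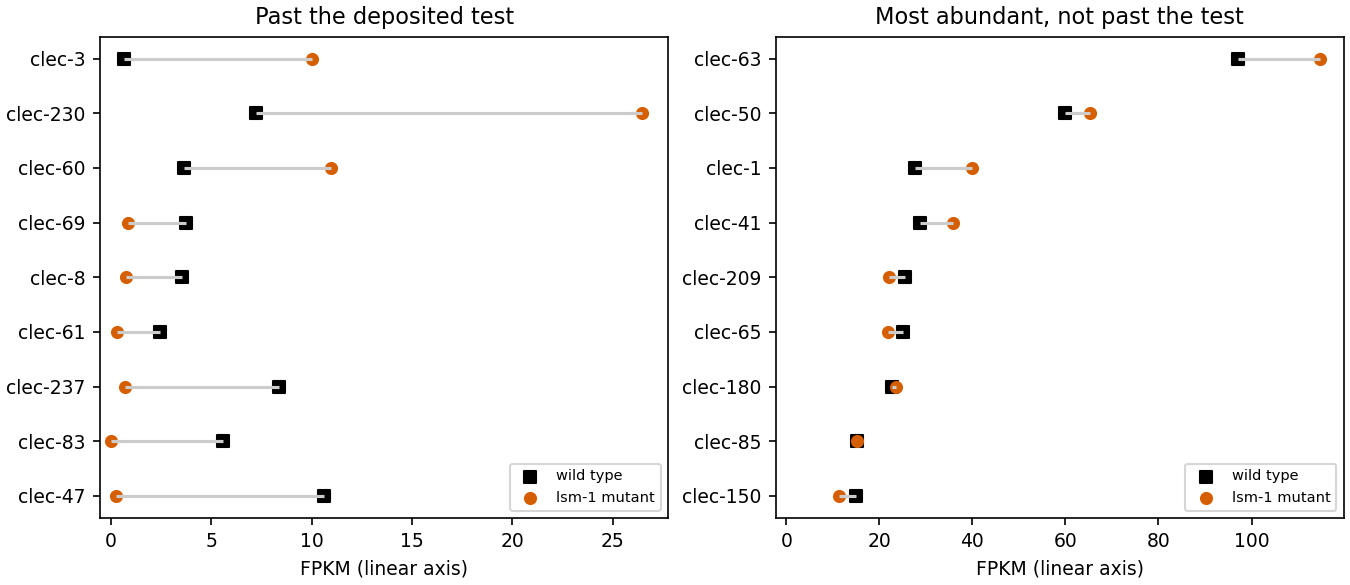
FPKM in the lsm-1 mutant library (orange circles) and the wild-type library (black squares), on linear axes, for the 9 members past the authors' deposited test (left) and for the 9 of the 10 most abundant members that were not past it (right). Genes were placed left or right by that test, so wider relative gaps on the left follow from the choice. The right panel runs from clec-150 at 11.2 against 15.1 FPKM to clec-63 at 114.7 against 97.1, with clec-1 at 39.9 against 27.6. On the left, clec-47 is at 0.243 against 10.6.

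Differences were taken as log2(FPKM + 1) of the mutant library minus that of the wild-type library, a scale that understates the change of low genes. A difference of at least 1 either way, 2-fold on this scale, was past the size rule. Among the 82 measured members 6 were higher in the mutant library (7.32%) and 12 lower (14.6%), and 64 lay within the rule. Over all 14838 measured genes 13.6% were higher and 12.2% lower, and these include the genes listed at 0 in 1 library. Over the other measured protein-coding genes the shares were 10.2% and 6.92%. With only genes above 0 in every FPKM column, 5 of 78 members were higher and 11 lower, against 6.57% and 3.86% of all such genes. The median difference of all measured genes was 0.24. After it was subtracted, 3 members were higher and 21 lower, against 10.5% and 14.7% of all genes.

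The family lay below other genes and was more widely spread between its quartiles. In the upper tail it was narrower, with a 95th percentile of 1.09 against 1.51 for other measured protein-coding genes. Its median difference was -0.12 (quartiles -0.80 and 0.47), and that of the 11871 other measured protein-coding genes was 0.26 (quartiles -0.14 and 0.59). Relative to all measured genes the family median was -0.36, and 51 of the 82 members were below the median of all genes. Among members at 5 FPKM or more the median was 0.07, against 0.34 for all genes at that level. Of the measured members 2 were listed at 0 in 1 library, compared with 2554 of all measured genes.

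**Figure D2:**
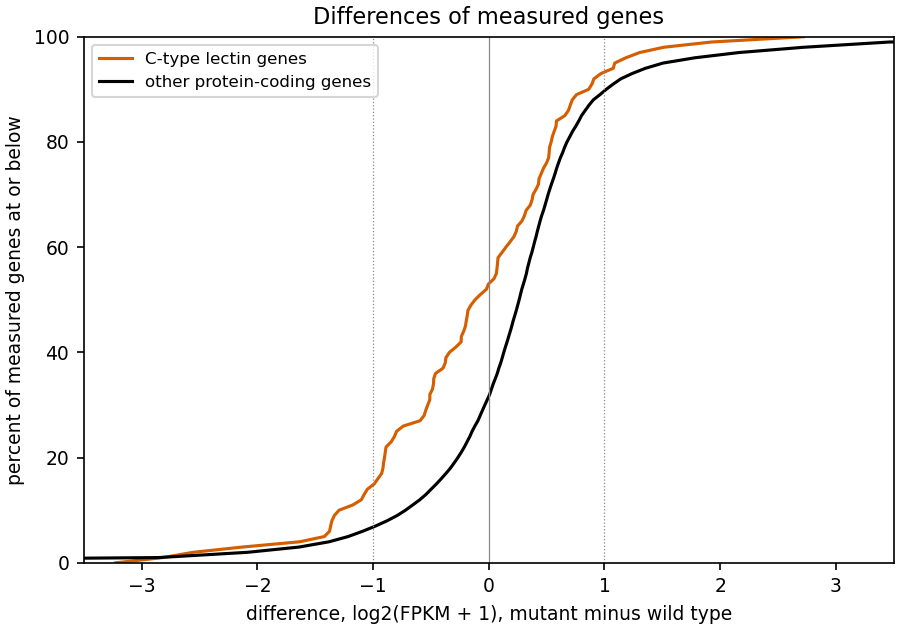
Cumulative percent of measured genes (vertical axis) at or below a given difference in log2(FPKM + 1), mutant minus wild type (horizontal axis, drawn from -3.5 to 3.5), for the 82 C-type lectin genes (orange) and 11871 other protein-coding genes (black), with dotted lines at the size rule. The orange curve has its median at -0.12 and its quartiles at -0.80 and 0.47, and the black curve is steeper in its middle, with a median of 0.26.

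The lower members were mostly at low levels. Bands were set by the higher of a gene's levels, for genes above 0 in both libraries. Between 2 and 5 FPKM, 6 of 19 members were lower by the size rule and 1 was higher, with a median difference of -0.75. All genes of that band had a median of 0.17, with 4.89% lower and 5.40% higher. Between 5 and 10 FPKM, 2 of 17 members were lower and 1 was higher, with a median of -0.02 against 0.33 for all genes, of which 3.74% were lower and 8.42% higher. At 10 FPKM or more, 3 of 17 were higher and 1 was lower, with a median of 0.24 against 0.34, and 9.22% of all genes there were higher and 4.07% lower. Between 1 and 2 FPKM, 2 of 27 members were lower and none was higher, against 2.10% and 0.939% of all genes, although the median of the members was 0.21 against -0.01. Over the 81 measured members with a known length the median was about 40 fragments for both libraries together, and 20 of them had fewer than 20.

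By chromosome, the 25 measured members on V had a median difference of -0.24, with 5 lower by the size rule and 1 higher. On II, 4 of 17 were lower and 2 higher, with a median of 0.07. On IV, 2 of 21 were lower and 1 higher (median -0.02), and on I, 1 of 11 was lower and 1 higher (median 0.31). On III, 1 of 6 was higher and none was lower (median 0.04). On X, neither of the 2 measured members was past the rule (median 0.71). Over all measured genes 13.6% were higher and 12.2% lower, and these shares were not computed for each chromosome. Whether members on a chromosome differ from its other genes is therefore not known. No test of these differences was made.

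The authors' deposited table gives a usable test, of 1 library against the other, for 165 members, and 9 passed it. Of the 9, by the authors' deposited table, 3 were higher in the mutant library (1.82%) and 6 lower (3.64%). Over all genes with a usable test, that table calls 2.35% higher and 1.41% lower. Of the 165 members 87 were below 1 FPKM in both libraries, and none of these passed, so all 9 were measured members. Only 3821 of all 17570 genes with a usable test were that low. The shares of the 165 are therefore held down by low members. Of other measured protein-coding genes with a usable test, the table calls 3.59% higher and 1.91% lower.

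Highest in the mutant library relative to the wild type was clec-3 (C41H7.7, chromosome II), at 10.004 FPKM against 0.671. Its ratio was 14.9 (95% counting interval 6.60 to 35.6), from about 121 and 7 fragments, with q = 1.75e-06 in the authors' deposited table. The largest difference in FPKM of any member was that of clec-230 (C29F3.5, chromosome V), at 26.5 against 7.23. Its ratio was 3.66 (2.49 to 5.63), with q = 0.00804 in the authors' deposited table. Also higher was clec-60 (ZK666.6, chromosome II), an intestinal gene known for its induction by Staphylococcus aureus, at 10.99 against 3.63 FPKM. Its ratio was 3.02 (2.08 to 4.54), with q = 0.0319 in the authors' deposited table. These 3 genes were low to moderate in wild-type larvae and at or above 10 FPKM in the mutant library.

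Lowest of the family relative to the wild type was clec-47 (T09F5.9, chromosome V), at 0.243 FPKM against 10.6. Its ratio was 0.0229 (95% counting interval 0.000514 to 0.123), from about 1 and 39 fragments, with q = 0.0102 in the authors' deposited table. On the same chromosome clec-237 (Y102A5C.7) was at 0.710 against 8.36 FPKM, a ratio of 0.0849 (0.0216 to 0.231), with q = 0.0039 in the authors' deposited table. Both had 8 FPKM or more in wild-type larvae and under 1 FPKM in the mutant library.

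The other lower genes were less abundant in wild-type larvae. On chromosome II, clec-61 (ZK666.7), like clec-60 a Staphylococcus aureus response gene, was at 0.288 FPKM against 2.46. Its ratio was 0.117 (0.0212 to 0.368), with q = 0.0349 in the authors' deposited table. Also on II, clec-8 (Y38E10A.4) was at 0.769 against 3.57 FPKM, a ratio of 0.216 (0.103 to 0.443), with q = 0.0104 in the authors' deposited table. On chromosome IV, clec-69 (F56D6.15) was at 0.871 against 3.75 FPKM, a ratio of 0.232 (0.102 to 0.478), with q = 0.0201 in the authors' deposited table. The mutant library lists clec-83 (Y54G2A.14, chromosome IV) at 0, against 5.59 FPKM, with q = 0.00028 in the authors' deposited table. Such a 0 can be a failed estimate, so no ratio is given for it. RefSeq annotates clec-69 and clec-237 as pseudogenes, and how reads of related genes were shared among members was not tested.

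**Figure D3:**
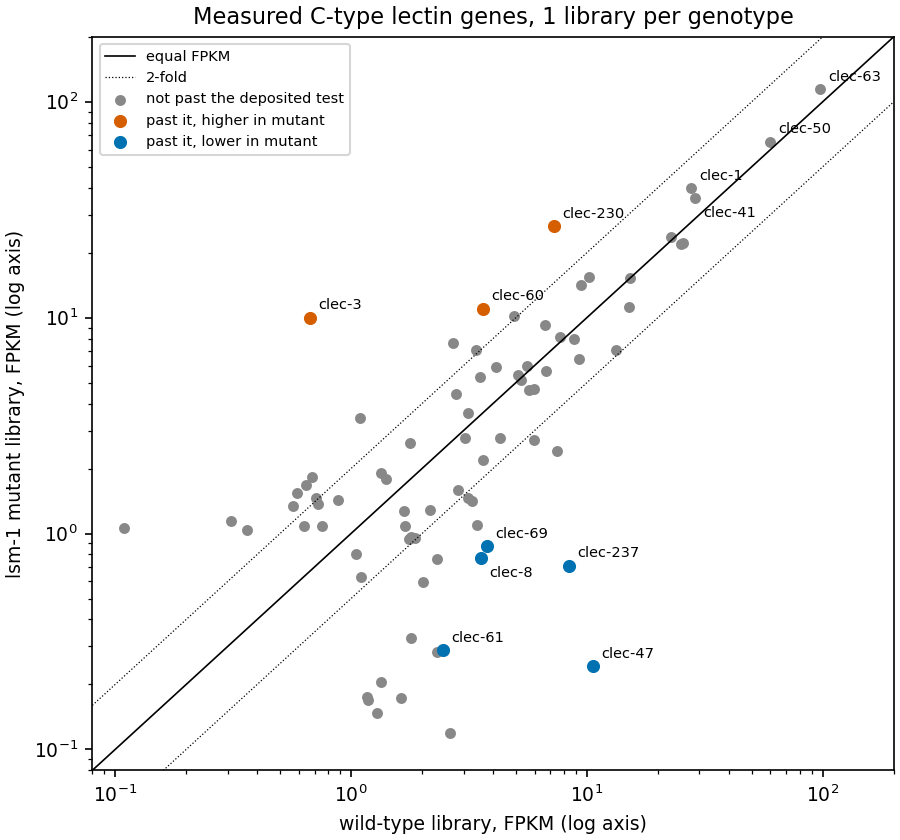
FPKM of the 80 measured C-type lectin genes above 0 in both libraries, wild type on the horizontal and lsm-1 mutant on the vertical axis, both logarithmic, with lines for equal FPKM and for 2-fold. Of the members past the authors' deposited test, 3 lie above the diagonal (orange: clec-3, clec-230, clec-60) and 5 below it (blue: clec-47, clec-237, clec-61, clec-8, clec-69).

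Other members were past the size rule and not called in the deposited table, where clec-82 and clec-243 have no usable test for want of data. Higher in the mutant library were clec-17 (7.62 against 2.72 FPKM, q = 0.0721 in the authors' deposited table) and clec-149 (3.44 against 1.09). The wild-type library lists clec-82 at 0, against 1.10 FPKM in mutant larvae. Lower were clec-48 (2.42 against 7.48 FPKM, q = 0.0555 in the authors' deposited table), clec-238 (0.119 against 2.64), clec-243 (0.282 against 2.30), clec-144 (0.173 against 1.62) and clec-124 (0.327 against 1.80). So was clec-87, which encodes the core of a chondroitin proteoglycan, at 1.10 against 3.42 FPKM. Another such core is encoded by clec-88, at 1.28 against 2.17 FPKM, with an interval of its ratio from 0.264 to 1.26. It had no usable deposited test, and the further FPKM pair lists clec-88 at 0 in both libraries, so its level depends on the pair read.

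Some members were more than 2-fold apart in FPKM but within the size rule, in both directions. The levels of clec-196 (10.1 against 4.90 FPKM) and clec-265 (7.07 against 3.40) gave ratios of 2.07 (95% counting interval 1.16 to 3.62) and 2.08 (1.27 to 3.39). The genes clec-64 (1.83 against 0.686 FPKM) and clec-163 (1.15 against 0.311) were low in both libraries, with intervals of 1.05 to 8.23 and 0.786 to 16.6. For clec-235, annotated as a pseudogene, about 10 fragments and 1 fragment lay behind 1.07 and 0.109 FPKM. All of these were higher in the mutant library. Among the lower ones was clec-5 (2.73 against 5.97 FPKM), with a ratio of 0.457 (0.286 to 0.714). So were clec-4 (0.760 against 2.32 FPKM), clec-172 (0.599 against 2.01) and clec-91 (0.148 against 1.29). Neither direction is listed in full. Over the 81 measured members with a length, the counting interval lay above 1 for 16, below 1 for 20 and across 1 for 45. Intervals were computed for members only, so no share over all genes stands beside these counts. The intervals are set against 1, so a gene at the median of all measured genes, such as clec-63, can count as above 1.

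Members linked to infection did not share a direction. Of 28 such genes, listed from general knowledge, 22 were measured. By the size rule 3 were higher (clec-60, clec-17 and clec-82) and 2 lower (clec-47 and clec-61), against 13.6% and 12.2% of all measured genes, so their shares were near the background. Of these, clec-60, clec-47 and clec-61 passed the deposited test, 1 higher and 2 lower of 24 with a usable test, against 2.35% and 1.41% of all genes. Their median difference was -0.09, and 15 of the 22 lay below the median of all measured genes. The gene clec-67, a target of PMK-1, was at 7.08 against 13.3 FPKM, a ratio of 0.534 (95% counting interval 0.422 to 0.672). In contrast clec-86 was at 15.4 against 10.2 FPKM.

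The other measured infection-linked members were within the size rule. Linked to defence against Serratia marcescens, clec-49 was at 6.41 against 9.29 FPKM. The gene clec-52 was at 4.65 against 5.94, clec-186 at 5.41 against 5.11 and clec-66 at 8.17 against 7.71. Less abundant were clec-172 (0.599 against 2.01 FPKM), clec-227 (0.942 against 1.77), clec-218 (1.27 against 1.67), clec-7 (0.806 against 1.04) and clec-166 (1.78 against 1.40). The Staphylococcus aureus response genes clec-70 (0.307 against 0.253 FPKM) and clec-71 (0.879 against 0.701) were under 1 FPKM in both libraries.

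Neighbouring members were compared because the family lies in runs. In 14 runs at least 2 members were measured, and in 11 of these every measured member was within the size rule. Since 64 of all 82 measured members and 11010 of all 14838 measured genes were within it, this count says little about neighbours. The adjacent genes clec-8 and clec-4 on chromosome II were both low in mutant larvae, clec-4 at 0.760 against 2.32 FPKM, a difference of -0.92. Differences in the run on II from clec-63 to clec-66 extended from -0.19 for clec-65 to 0.75 for clec-64. On chromosome V clec-57, clec-227, clec-56 and clec-54 ranged from -0.51 to 0.08. On IV clec-186 and clec-187 (5.16 against 5.25 FPKM) lay at 0.07 and -0.02.

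Other near neighbours went apart. Both past the deposited test, clec-60 was higher and clec-61 lower, although only 2 protein-coding genes separate them in RefSeq. In the run of clec-82, clec-83 and clec-84 on chromosome IV, the wild-type library lists clec-82 at 0 and the mutant library lists clec-83 at 0. The neighbouring clec-84 was at 14.2 against 9.41 FPKM, a ratio of 1.51 (95% counting interval 1.07 to 2.13). In the run of 13 members on IV that holds clec-67, 4 were measured. Their differences were -1.34 for clec-69, -0.82 for clec-67, -0.14 for clec-72 (7.93 against 8.86 FPKM) and 0.38 for clec-174 (1.44 against 0.878).

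**Figure D4:**
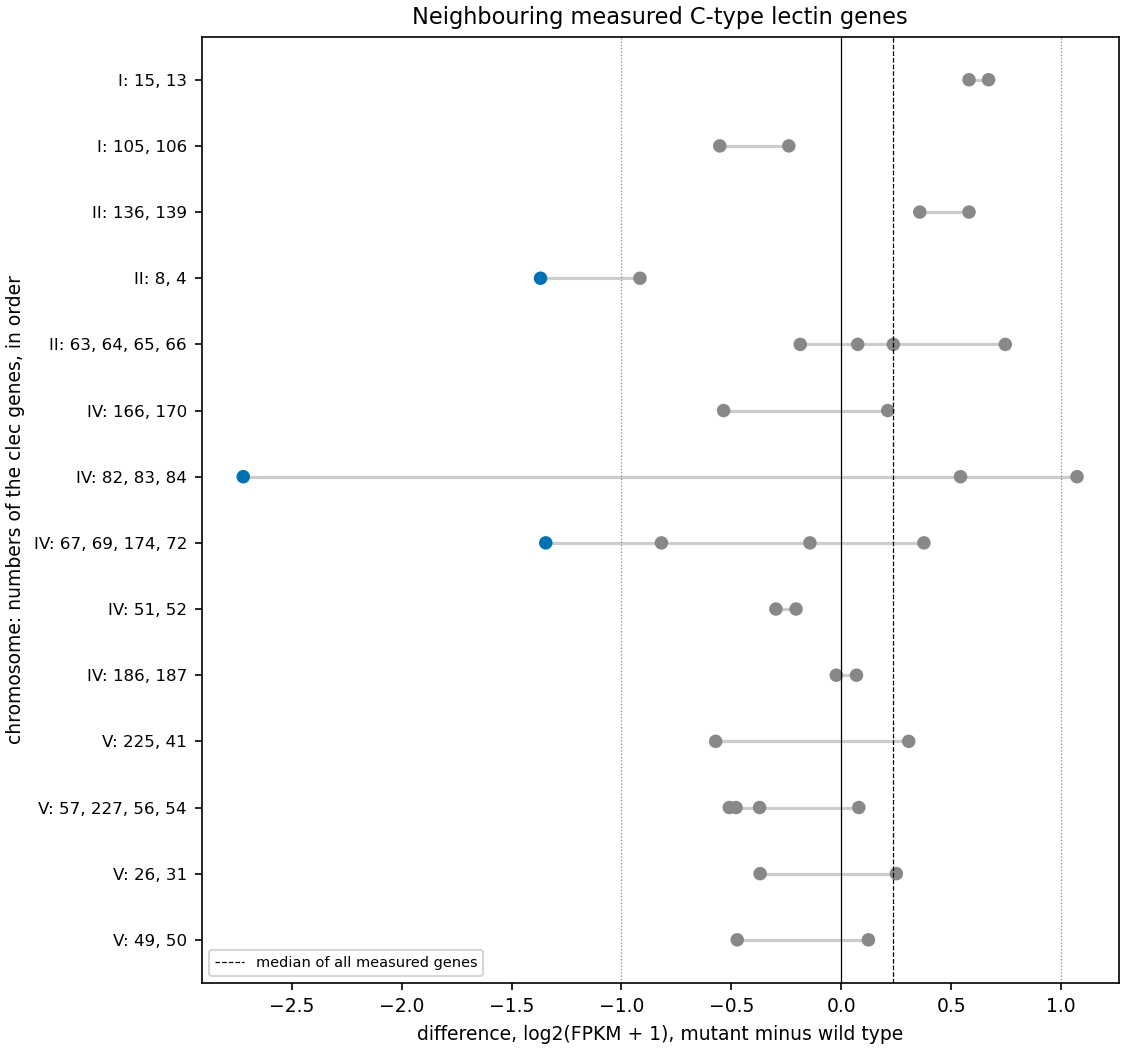
Differences in log2(FPKM + 1), mutant minus wild type (horizontal axis), of the measured members in each of 14 runs of neighbouring C-type lectin genes (rows, labelled by chromosome and gene numbers in genomic order). Each point is 1 gene, blue where it was past the authors' deposited test and lower, and grey bars join the lowest and highest gene of a run; 11 runs stay within the dotted lines of the size rule, and the run of clec-82, clec-83 and clec-84 extends from -2.72 to 1.07.

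Genes that regulate or accompany the same defences were set beside the family. Of 22 immune regulators 20 were measured, 4 were higher by the size rule, none was lower, and the median difference was 0.48. The background by this rule, here and for the families that follow, is 13.6% higher and 12.2% lower. The 4 were dkf-2, egl-5 (10.02 against 4.35 FPKM), skn-1 and nhr-49. Past the authors' deposited test and higher were vhp-1, which encodes a phosphatase of p38 kinase (38.9 against 19.9 FPKM), nhr-49 (25.4 against 11.9) and skn-1 (8.97 against 3.84). The kinase gene dkf-2 also passed, at 9.35 FPKM against a listed 0. This makes 4 higher and none lower of 19 with a usable test, against 2.35% and 1.41% of all genes. As for clec-83, the 0 of dkf-2 can be a failed estimate, and dkf-2 is counted among the 4 by either rule. The 2 regulators not measured were listed at 0 in both libraries, with a deposited test marked as failed. The p38 cascade genes nsy-1 (3.13 against 1.97 FPKM), sek-1 (13.96 against 10.6) and pmk-1 (11.3 against 8.82) were within the rule. Lysozymes gave 3 lower and none higher of 9 measured (median 0.03), with lys-4 at 14.9 against 50.0 FPKM. Saposin-like genes gave 3 lower and 1 higher of 18 (median -0.07), and galectins 3 higher and none lower of 12 (median 0.67).

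Tissue markers also differed between the libraries, and their part in the values above was not tested. The background by the size rule is again 13.6% higher and 12.2% lower. Summed FPKM had a ratio of 1.09 over all genes and 1.22 over protein-coding genes. Of 13 intestinal markers 12 were measured, 1 was lower by the size rule (mtl-2, 26.3 against 59.0 FPKM), none was higher, and ges-1 was listed at 0 in both libraries. They summed to 418 FPKM in the mutant library against 372, a ratio of 1.12. The highest differences among them were those of pept-1 (14.4 against 8.45 FPKM) and act-5 (105 against 69.2). Of the 12 measured, 6 lay above the median of all measured genes and 6 below it. The intestinal GATA factor gene elt-2, within the rule, was at 1.41 against 2.59 FPKM. Germ-line markers summed to 52.3 against 76.8 FPKM, with 12 of 13 measured genes below the median of all measured genes. Epidermal markers summed to 373 against 272 FPKM, with 4 of 10 higher and 1 lower, and nhr-23 was listed at 0 in mutant larvae. Pharyngeal gland markers summed to 50.3 against 29.7 FPKM with 2 of 7 higher, phat-3 among them from a listed 0 in wild-type larvae. Of 12 markers of males and sperm 3 were measured, and the list summed to 3.79 against 10.2 FPKM.

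The lsm-1 transcript itself was at 5.94 FPKM in the mutant library against 10.2, with q = 0.457 in the authors' deposited table. Since an allele may leave much of its gene transcribed, this value says little about the genotype. As estimated from the smallest steps of the values, 1 fragment was worth 0.116 FPKM for a transcript of 1 kilobase in the mutant library against 0.143 for N2, which makes the mutant library the deeper one.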

How the data were processed

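The authors deposited FPKM values for 2 libraries, made with TopHat, Cufflinks and Cuffdiff, per the submitters' processing notes. Versions, genome build and annotation: not given in the sources used here. The deposited table also holds a log2 fold change and a p-value and q-value per gene, from a test of 1 library against 1 library. The FPKM pair beside that test was used. A further pair, lower by a median factor of 1.14 in both libraries, served as an alternative. It lists some genes at 0 that the first pair does not, among them clec-51 and clec-88. The reverse holds for clec-89, listed at 0 in both libraries by the first pair. The further pair has it at 1.11 FPKM in the mutant library against 0.170 in the wild-type library. The column headed control was taken as the N2 library, the only one that is not mutant. Differences used a pseudocount of 1 and a minimum of 1 FPKM in either library, and no p-value was computed here. Biotypes and gene order came from RefSeq WBcel235, and transcript lengths from Ensembl release 115. Fragment numbers were estimated from the smallest common step of FPKM times length, over genes with 1 transcript of 600 to 3000 nucleotides. Calculations used Python 3.11.15, pandas 2.3.3 and SciPy 1.17.1, and the size rule was tested on simulated data.

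Genes named are all members past the deposited test, the 10 highest and 10 lowest differences among measured members above 0 in both libraries, the 10 most abundant, members at 0 in 1 library and at 5 FPKM or more in the other, measured infection-linked members, the ends of other lists, and neighbours of these. Added after their values were seen were clec-5, clec-70, clec-71, clec-88, clec-89, clec-91, clec-124, vhp-1, nhr-49, skn-1, nsy-1, sek-1, pmk-1 and ges-1. The members and lists were chosen with earlier results of these data known. Alternatives changed the pseudocount, filter, FPKM pair, treatment of zeros, scaling and centring.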

Additional observations from a re-analysis of the deposited data

How the results depend on the processing

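No paired analysis was possible because there is 1 library per genotype, and for the same reason none could be left out. By the size rule 6 members were higher and 12 lower, which became 15 and 21 with a pseudocount of 0.1, and 3 and 21 after centring on the median of all measured genes. At 5 FPKM or more 35 members were measured, 4 were lower by the size rule and 3 were lower past the deposited test, since fewer genes enter. Without a filter 259 members entered. Equal library sums gave a ratio of family totals of 0.917 in place of 1.002. The other counts stayed within 1.5 times, and the family median ranged from -0.36 to 0.07. Among 44 named members the sign turned for 5 after centring (clec-50, clec-66, clec-166, clec-180 and clec-186), for 4 of these with equal sums, and for none with the further FPKM pair or the smaller pseudocount. The difference of clec-63 went from 0.24 to 0.00 after centring and to 0.11 with equal sums. The alternative that counts near-identical copies once was not run, so members that share reads may not be independent. Estimated fragments behind a measured member ranged from 7 to 2163, which limits the lower ones.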
